A study of Mus musculus with 6 samples.

Results

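Toll-like receptors are the germline-encoded sensors with which monocytes detect microbial products, and 10 of their genes were followed here in bone marrow monocytes of the jaw and of the leg. They were taken by gene name from a count table of 57010 genes, 5 of them coding for receptors of the cell surface (Tlr1, Tlr2, Tlr4, Tlr5 and Tlr6) and 5 for receptors of endosomes (Tlr3, Tlr7, Tlr8, Tlr9 and Tlr13). RNA was sequenced from femur-derived monocytes in 3 libraries (labelled S13, S15 and S18) and mandibular-derived monocytes in 3 others (labelled S16, S19 and S23). All came from C57BL/6 mice aged 1 year, for which no treatment or altered allele is given, and the monocytes were the unlabeled flow-through of a magnetic column that retained other marrow cells. Male and female mice were used, but neither the sex nor the animal of a library is given, so p-values measure the spread between these libraries. In such bulk samples, fewer cells of a type and less RNA per cell cannot be told apart.

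Each receptor has an outer part of leucine-rich repeats that binds ligand and an inner TIR domain that recruits adaptor proteins. Surface receptors mainly read lipids and proteins of the microbial envelope, while the endosomal receptors read nucleic acids after uptake. All of these receptors except Tlr3 signal through the adaptor MyD88, and the pathway ends in NF-κB and interferon regulatory factors. Monocytes are also the precursors of osteoclasts, in which ligands of these receptors are known to inhibit the early response to RANKL.

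The libraries held 15718782 to 25371474 counts, of which 3304 to 7091 fell on the 10 receptor genes. Monocyte genes were abundant in every library: Csf1r had 157 to 450 CPM (counts per 1000000, after TMM scaling), Ccr2 369 to 849 CPM and Ly6c2 182 to 474 CPM. Of 8 monocyte markers 0 were called different between the sites, where 5.18% of all tested genes were, so this count says little about the monocytes. Other cells were represented unequally. The summed level of 10 neutrophil markers was 32747, 3681 and 23554 CPM in the femur libraries S13, S15 and S18 and 3880 to 10243 CPM in the mandible libraries, and that of 6 markers of dental and oral epithelium was 1.27 to 4.01 CPM in the femur and 5756 to 11272 CPM in the mandible. Mandible S23 stood apart by Xist, the X-inactivation transcript, at 1441 CPM against at most 0.553 CPM elsewhere, and by having no count of Ddx3y, Eif2s3y, Kdm5d and Uty. Results are therefore also given without it. The summed markers of the other cell types listed were 79.0 to 116 CPM in the femur and 7361 to 11407 CPM in the mandible for mesenchymal cells and osteoblasts, and 529 to 850 CPM and 72.0 to 104 CPM for megakaryocytes and platelets. The sums overlapped for type 1 conventional dendritic cells (181 to 255 and 208 to 282 CPM), resident macrophages (83.8 to 206 and 72.8 to 96.5 CPM), T and NK cells (35.8 to 139 and 40.3 to 103 CPM) and endothelium (45.4 to 54.6 and 36.7 to 49.6 CPM). Single markers could still differ. Of 8 tested resident macrophage markers, 7 were below 0 and 1 above, with a median log2 fold change of -2.01. Of these only Vcam1 was called, lower in the mandible (5.18% of all tested genes were called). The dendritic cell sum was mostly Wdfy4, at 171 to 272 CPM over all libraries. Clec9a was at 3.05 to 6.79 CPM in the femur and 1.61 to 2.86 CPM in the mandible, and was not called. What these differences contribute to the receptor values was not tested.

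One neighboring pair of receptor genes shares sequence, so that a single read within it matches both genes, although its mate may lie outside. Tlr1 and Tlr6 lie beside each other on chromosome 5, from 64924679 to 64933563 and from 64952031 to 64960097 of GRCm38 on the minus strand, and share an identical run of 229 bases in their coding exons. Its first 120 bases, at chr5:64925646-64925765 in Tlr1 and chr5:64953937-64954056 in Tlr6 (minus strand, GENCODE M21), are printed to show what a read of either gene would look like there.
Tlr1 and Tlr6: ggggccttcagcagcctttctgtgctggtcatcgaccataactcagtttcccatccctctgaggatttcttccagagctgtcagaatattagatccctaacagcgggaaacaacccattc
Of the 50-base windows of the longest coding transcripts, 15.3% of those of Tlr1 and 12.6% of those of Tlr6 also occurred in another gene, against 1.56% for Tlr3 and 0 for the other 7 receptors. The reads were 50 bases long in pairs, and how reads with several positions were counted is not given, so the division of counts between Tlr1 and Tlr6 is uncertain. Tlr3 shares 381 exon bases with the antisense gene Gm45542, and whether counting used the strand is not given either.

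The regions before the transcription starts are shown for 3 receptors that recur below, Tlr2 as the most abundant surface receptor, Tlr13 as the most abundant endosomal receptor and Tlr9 as the receptor with the clearest difference between the sites. Each is the 250 bases before the start annotated by RefSeq on GRCm38.p6, written in the direction of the gene, and capitals mark a match to GAGGAAG, a core that the myeloid factor PU.1 can bind, on either strand. For Tlr2 and Tlr13 the RefSeq start lies inside the gene as annotated by GENCODE M21, so part of the window falls within that gene.
Tlr2 (chr3:83841609-83841858, minus strand): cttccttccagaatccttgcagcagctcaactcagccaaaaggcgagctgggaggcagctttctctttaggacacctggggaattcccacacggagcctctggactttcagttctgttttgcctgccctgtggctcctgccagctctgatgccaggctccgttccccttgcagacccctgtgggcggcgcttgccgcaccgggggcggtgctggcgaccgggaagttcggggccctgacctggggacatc
Tlr13 (chrX:106143025-106143274, plus strand): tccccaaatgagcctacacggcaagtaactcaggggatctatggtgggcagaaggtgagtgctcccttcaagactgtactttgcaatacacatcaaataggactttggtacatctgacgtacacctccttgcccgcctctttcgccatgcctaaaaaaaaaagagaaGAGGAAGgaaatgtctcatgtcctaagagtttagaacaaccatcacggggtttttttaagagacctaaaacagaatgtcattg
Tlr9 (chr9:106222348-106222597, plus strand): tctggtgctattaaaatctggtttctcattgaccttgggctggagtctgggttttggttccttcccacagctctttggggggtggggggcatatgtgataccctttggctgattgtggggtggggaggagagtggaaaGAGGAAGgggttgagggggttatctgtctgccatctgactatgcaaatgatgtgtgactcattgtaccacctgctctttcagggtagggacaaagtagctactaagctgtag
RefSeq entries were matched for 8 receptors with 10 starts, all but Tlr4 and Tlr7. The letters GAGGAAG were found in 3 of these 10 windows, those of Tlr13, Tlr9 and 1 of the starts of Tlr1, and in 10.6% of 32851 such windows of all genes. A match is a description of the sequence and does not show binding.

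Compared per length, in RPKM (CPM per kilobase of exon), Tlr2 and Tlr13 were the most abundant receptors in every library and Tlr3 the least. Tlr2, which recognizes bacterial lipoproteins, ran from 12.5 to 27.9 RPKM and Tlr13, a mouse receptor for bacterial ribosomal RNA, from 9.87 to 24.9 RPKM. Together they made up 46.8 to 59.2% of the summed RPKM of the 10 receptors. Their ranges overlapped, with Tlr2 ahead in 4 libraries and Tlr13 in femur S13 and mandible S16. The RNA receptor Tlr8 (4.71 to 8.96 RPKM), the CpG DNA receptor Tlr9 (1.89 to 10.1 RPKM) and the single-stranded RNA receptor Tlr7 (3.02 to 8.32 RPKM) followed on average, and their order changed from library to library. Tlr4, the receptor for lipopolysaccharide, ran from 1.60 RPKM in mandible S23, where it ranked 9, to 5.13 RPKM in femur S13, where it ranked 3. Tlr6 and Tlr1, which pair with Tlr2 to read diacylated and triacylated lipopeptides, and the flagellin receptor Tlr5 overlapped throughout, with means over all libraries of 2.38, 1.99 and 1.98 RPKM. Tlr3, the receptor for double-stranded RNA, stayed between 0.085 and 0.702 RPKM, from only 8 to 73 counts.

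**Figure D1:**
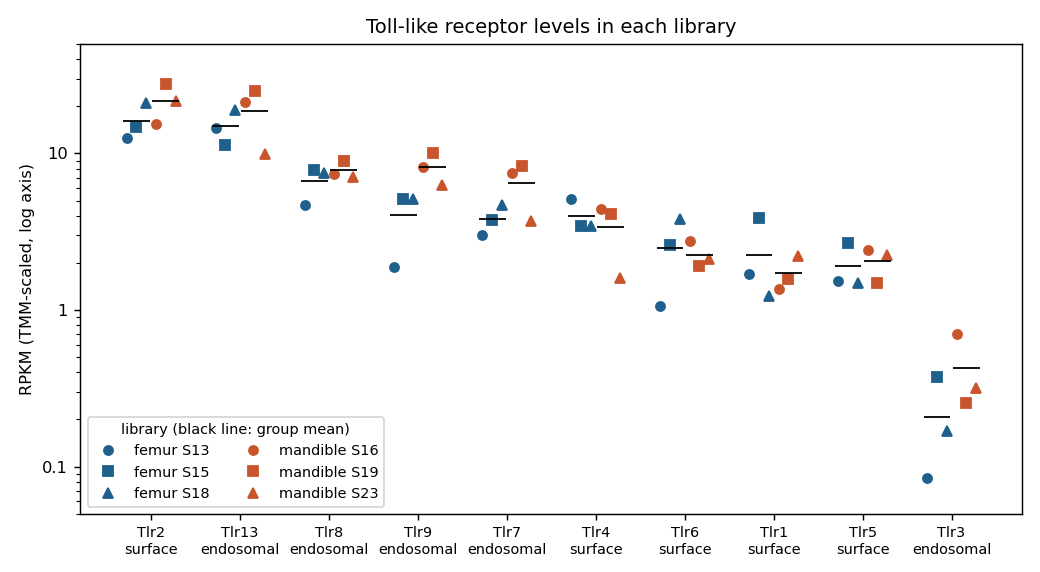
Level of each Toll-like receptor gene in the 6 libraries, as TMM-scaled RPKM on a log axis, with femur libraries in blue, mandible libraries in orange and the mean of each group as a black line. Tlr2 and Tlr13 lie at the top and Tlr3 at the bottom in every library, and Tlr9 is the gene whose blue and orange points do not overlap.

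To determine whether any receptor differed between mandible and femur, edgeR's quasi-likelihood test was run on the whole table, taking femur as the baseline. None of the 10 receptors, all of which passed the filter on low counts, met the criteria for a call, which were a fold change of at least 2 together with an adjusted p-value below 0.05, where 5.18% of the 18114 tested genes were called. At an unadjusted p under 0.05, 1 of the 10 receptors, Tlr9, was found (16.4% of all tested genes), and DESeq2 and limma-voom called none and also found only Tlr9 at this level. Tlr9 was again the only receptor whose 3 mandible libraries lay apart from the 3 femur libraries, which 24.2% of all tested genes did. The median log2 fold change was 0.77 for the 5 endosomal receptors, all above 0, and -0.15 for the 5 surface receptors, of which 2 were above 0, beside -0.038 for all tested genes. Intervals were wide: only those of Tlr4, Tlr1 and Tlr8 had an upper limit below 2-fold. Of these, the intervals of Tlr4 and Tlr1 reached down to 0.451-fold and 0.312-fold.

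**Figure D2:**
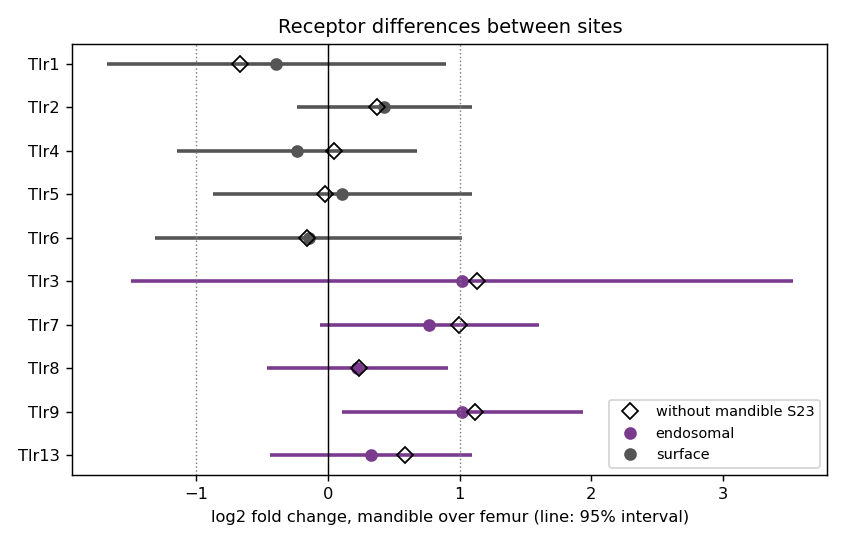
Log2 fold change of each receptor, mandible over femur, from edgeR's quasi-likelihood fit, with its 95% interval as a line, and the same value without mandible S23 as an open diamond. Dotted lines mark a 2-fold difference. Of the 10 intervals only that of Tlr9 (0.10 to 1.94) leaves out 0, and no receptor passes the adjusted threshold.

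Tlr9 reads unmethylated CpG DNA in endosomes and lies on chromosome 9 from 106222598 to 106226883 of GRCm38. Its level was 6.57, 17.7 and 17.8 CPM in the femur libraries S13, S15 and S18 and 28.5, 35.1 and 22.0 CPM in the mandible libraries S16, S19 and S23. The lowest mandible library was thus above the highest femur library, and femur S13 was lower than any other. The difference was 2.03-fold (95% interval 1.08 to 3.82), or 1.02 on the log2 scale (SE 0.42, edgeR adjusted p = 0.24). An exact permutation test, two-sided, gave p = 0.1, the smallest that 3 against 3 libraries allow. Without femur S13 the log2 fold change was 0.69, and without mandible S23 it was 1.12.

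Cells other than classical monocytes also express Tlr9. Markers of some cell types were higher in the same libraries, while those of others mostly had a log2 fold change below 0. Of 6 markers of nonclassical monocytes, the patrolling subset, Nr4a1 and Ace were called higher in the mandible (3.88% of all tested genes were), by 1.25 and 1.21 on the log2 scale (edgeR adjusted p = 0.047 and 0.036). Nr4a1 kept its call only without femur S15 (adjusted p = 0.021, otherwise 0.11 to 0.18) and Ace only without mandible S23 (adjusted p = 0.040, otherwise 0.055 to 0.20) when 1 library was left out. The call of Nr4a1 was also lost without normalization factors (adjusted p = 0.062), with a minimum mean of 1 CPM (0.057) and with the correction for gene length (0.11), and that of Ace with the last of these (0.23). The summed level of the 6 markers was 448 to 803 CPM in the femur and 608 to 1223 CPM in the mandible, with S16 and S19 highest, as for Tlr9. Over the 6 libraries, Nr4a1 was also the gene closest in pattern to Tlr9 among the 154 tested genes of all lists, with a root mean square difference of centered log2 CPM of 0.22. Of 6 markers of plasmacytoid dendritic cells, which carry much Tlr9 and Tlr7, the summed level was 15.6 to 20.3 CPM in the femur and 23.7 to 37.2 CPM in the mandible. Cox6a2, also a gene of striated muscle, was the only 1 of them called. It had 0 to 0.177 CPM in the femur and 3.42 to 12.2 CPM in the mandible, and so made part of the difference between the sums. Of the 5 tested, 4 were above 0 and Ly6d was below (log2 fold change -0.57). The defining marker Siglech had 0.875 to 3.15 CPM in the femur and 1.42 to 8.51 CPM in the mandible. Of 8 markers of the B lineage the summed level was 17.2 to 23.6 CPM in the femur and 23.7 to 33.8 CPM in the mandible, with Ebf1 called. Neutrophil markers went the other way: all 10 were below 0 (median log2 fold change -1.29), and S100a8 was called lower (5.18% of all tested genes were called). Of 8 tested resident macrophage markers, 7 were below 0. What part any of these cells had in the Tlr9 values was not tested.

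Tlr7, Tlr8 and Tlr13 are X-linked in the mouse. Tlr7 lies on chromosome X from 167304929 to 167330558, next to Tlr8 (167242696 to 167264329), and Tlr13 from 106143204 to 106160493, all on GRCm38. Tlr7 was at 12.3, 15.2 and 19.3 CPM in femur S13, S15 and S18 and at 30.7, 33.9 and 15.2 CPM in mandible S16, S19 and S23. Mandible S16 and S19 thus exceeded every femur library, while S23 lay among them. Tlr7 had a log2 fold change of 0.77 (SE 0.38, edgeR adjusted p = 0.36), with a 95% interval from 0.957-fold to 3.04-fold. Without S23 it was 0.99 (adjusted p = 0.20), still short of the threshold. Tlr13 had the same shape, with 62.3, 49.1 and 81.1 CPM in the femur libraries and 92.3, 107 and 42.5 CPM in the mandible libraries, so that S23 held the lowest and S19 the highest value of all. Its log2 fold change was 0.33 (SE 0.35, edgeR adjusted p = 0.75), and 0.58 without S23. Of the other receptors Tlr7 and Tlr13 were closest in pattern to each other (root mean square difference 0.30 on the log2 scale). Per length, Tlr13 was 3.05 to 4.80 times Tlr7 in the femur and 2.65 to 2.99 times in the mandible. Tlr8 had 16.9, 28.2 and 26.8 CPM in the femur libraries and 26.6, 32.1 and 25.2 CPM in the mandible libraries, which overlapped (log2 fold change 0.22, standard error 0.31). In S23, the library with high Xist, the RPKM of Tlr7 was 0.530 times that of Tlr8, within the femur range of 0.476 to 0.640, against 1.01 in S16 and 0.928 in S19. S23 is the only library with this Xist level, so that level and the other properties of the library cannot be told apart.

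Tlr3, on chromosome 8 from 45395665 to 45411080, was near the limit of detection. It had 8, 42 and 20 counts in femur S13, S15 and S18 and 73, 28 and 29 counts in mandible S16, S19 and S23, and the groups overlapped. The log2 fold change of 1.02 carried a standard error of 1.14, and its 95% interval, from 0.355-fold to 11.6-fold, excludes neither a higher nor a lower level in the mandible.

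Among the surface receptors, Tlr2 (chromosome 3, 83836272 to 83841767) had 37.8, 44.2 and 63.5 CPM in the femur libraries and 46.5, 84.0 and 65.2 CPM in the mandible libraries. Femur S18 exceeded mandible S16, and the log2 fold change of 0.43 (SE 0.30, edgeR adjusted p = 0.58) corresponds to 1.34-fold with a 95% interval from 0.848-fold to 2.13-fold. Tlr4 (chromosome 4, 66827584 to 66930284) was at 28.5, 19.03 and 19.09 CPM in the femur libraries and at 24.7, 22.9 and 8.87 CPM in the mandible libraries. It was highest in femur S13 and lowest in mandible S23, and its log2 fold change of -0.24 (standard error 0.42) became 0.048 without S23. Per length, Tlr2 exceeded Tlr4 by 2.44 to 6.14 times in the femur and by 3.47 to 13.6 times in the mandible, where S23 gave the highest ratio. Tlr5 (chromosome 1, 182954788 to 182976044) had 8.01, 13.9 and 7.73 CPM in the femur libraries and 12.6, 7.69 and 11.7 CPM in the mandible libraries, and its log2 fold change of 0.11 (SE 0.45) took the other sign without any 1 of the libraries S13, S18, S16 and S23.

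Tlr1 and Tlr6 were the most variable of the surface receptors among femur libraries, by 3.13-fold and 3.59-fold from lowest to highest, against 1.62-fold and 1.46-fold in the mandible. Tlr1 had 5.69, 12.9 and 4.11 CPM in femur S13, S15 and S18, and 4.55 to 7.38 CPM in the mandible. Tlr6 had 3.98, 9.72 and 14.3 CPM in the same femur libraries, and 7.07 to 10.3 CPM in the mandible. The ratio of their RPKM went from 0.321 in femur S18 to 1.59 in femur S13. Their log2 fold changes were -0.39 and -0.15 (standard errors 0.59 and 0.53), and without femur S15 that of Tlr1 was 0.19, while without femur S18 that of Tlr6 was 0.31. The sum of both genes was 16.9 ± 6.59 CPM (SD, n = 3) in the femur and 14.2 ± 1.56 CPM (SD, n = 3) in the mandible. This sum does not depend on how shared reads were divided, but it does depend on whether they were dropped or counted for both genes. In every library Tlr2 was at least 3.82 times Tlr1 and 5.51 times Tlr6 by RPKM, so the shared partner of the lipopeptide receptors was the more abundant.

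Summed by place, the surface receptors reached 22.0, 27.2 and 31.1 RPKM in femur S13, S15 and S18 and 26.4, 37.0 and 29.8 RPKM in mandible S16, S19 and S23. The endosomal receptors reached 24.2, 28.5 and 36.3 RPKM in the femur and 45.3, 52.5 and 27.3 RPKM in the mandible. The surface share was 47.5 ± 1.40% (SD, n = 3) of the sum in the femur and 43.5 ± 7.91% (SD, n = 3) in the mandible, where it was 36.8 and 41.3% in S16 and S19, under every femur library, and 52.2% in S23, above every femur library. The share was 4.07 percentage points less in the mandible, 8.45 points less without S23 and 0.761 points less without S16, and no test was made of a sum over chosen genes.

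**Figure D3:**
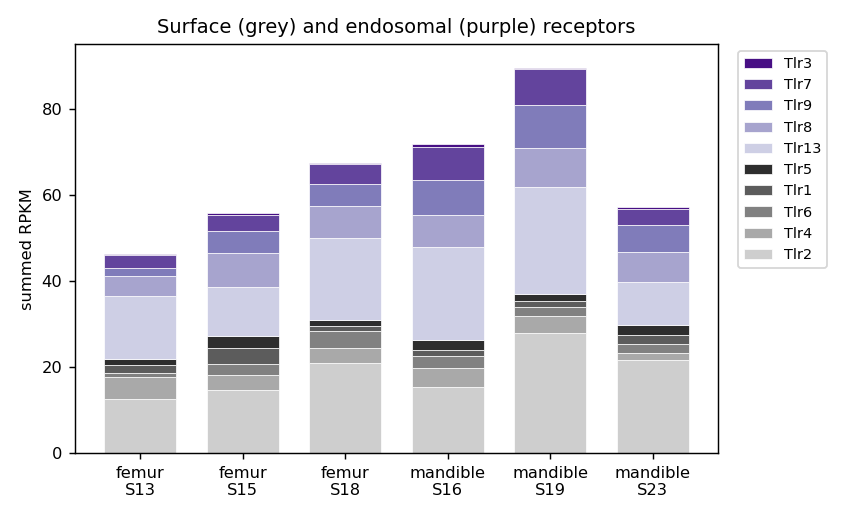
Summed RPKM of the receptors in each library, stacked by gene, with surface receptors in grey and endosomal receptors in purple. The purple part is tallest in mandible S16 and S19 (45.3 and 52.5 RPKM), and in mandible S23 it is 27.3 RPKM, within the femur range.

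Over the 6 libraries, the listed gene closest in pattern to each receptor was found by the root mean square difference of centered log2 CPM, as a description without a test. It was smallest for Tlr8 with Zc3h12a (0.13), and 0.22 for Tlr13 with Ctss, 0.23 for Tlr7 with Cnpy4 and 0.24 for Tlr2 with Ticam1. It was 0.27 for Tlr5 with Traf3, 0.29 for Tlr4 with Tab3 and for Tlr1 with Ikbke, and larger for Tlr6 and Tlr3, both with Irf5 (0.40 and 0.51). All these values share the depth and composition of the same libraries.

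Of the remaining mouse receptors, Tlr11 and Tlr12, which read a protozoan protein, were close to the limit of detection. Tlr11 had 0 to 24 counts and did not pass the filter. Tlr12 had 23, 39 and 52 counts in the femur libraries and 0, 9 and 0 counts in mandible S16, S19 and S23, and was not called (log2 fold change -3.57, SE 1.85, edgeR adjusted p = 0.39).

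Receptors need partners at the membrane, in the endoplasmic reticulum and in endosomes, and of those listed only the protease gene Ctsl was called. Cd14, which hands lipopolysaccharide to Tlr4, was at 21.5 ± 7.23 CPM (SD, n = 3) in the femur and 25.3 ± 16.4 CPM (SD, n = 3) in the mandible, highest in S23 (43.7 CPM), the library with the least Tlr4. Ly96, which encodes the lipopolysaccharide-binding subunit MD-2 of the Tlr4 complex, had 43 to 91 counts in the femur and 15 to 51 counts in the mandible (log2 fold change -1.22, standard error 0.96). Cd180, a receptor relative without a TIR domain, and its partner Ly86 were at 37.2 ± 13.7 and 66.4 ± 19.7 CPM in the femur and at 50.3 ± 20.0 and 69.5 ± 24.8 CPM in the mandible (SD, n = 3). None of the 7 coreceptor and ligand transfer genes was called. Unc93b1, which carries the nucleic acid receptors to endosomes, was at 81.6 to 158 RPKM and exceeded the sum of the 5 endosomal receptors by 2.72 to 4.53 times in each library, and its log2 fold change was 0.17 (standard error 0.32).

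Of 10 genes for chaperones, trafficking and receptor cleavage, all had a log2 fold change above 0 with a median of 0.31, and 1 was called higher (3.88% of all tested genes were). This was Ctsl, which encodes the endosomal protease cathepsin L, with 26.6, 23.5 and 33.8 CPM in femur S13, S15 and S18 and 69.0, 73.4 and 81.6 CPM in mandible S16, S19 and S23. All mandible libraries lay above all femur libraries, by 1.42 on the log2 scale (SE 0.26, edgeR adjusted p = 0.0080). The call was lost without femur S13 (adjusted p = 0.051), without mandible S19 (adjusted p = 0.058), and after the trend of each library with gene length was removed (adjusted p = 0.16). The most abundant genes of this list, the protease Ctss and the chaperone Hsp90b1, at 425 and 160 RPKM over all libraries, had log2 fold changes of 0.43 and 0.27 and were not called.

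No further gene of the signaling lists was called. Over all 75 listed partners, signaling genes, induced genes and other receptors, 69 were tested, 1 was called (5.18% of all tested genes were) and 10 had an unadjusted p under 0.05 (14.5%, against 16.4% of all tested genes). Their median log2 fold change was 0.15. Among 6 adaptors the most abundant, Myd88 and Pik3ap1, had log2 fold changes of -0.061 and 0.12. Of 16 kinases and ubiquitin ligases 6 were above 0, the list median was -0.047, and the most abundant, Tab2 and Tbk1, had 0.43 and -0.26. Of 10 inhibitors 5 were above 0, with a median of 0.12, and the most abundant were the phosphatase gene Dusp1 and Nfkbia, at 90.1 and 41.0 RPKM, of which Dusp1 had a log2 fold change of -0.19. Of 9 transcription factors, Irf5 and Irf8 were the most abundant, at 65.7 and 57.6 RPKM, with log2 fold changes of 0.33 and 0.095.

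The libraries of the groups did not overlap for 13 of the 69 genes (18.8%, against 24.2% of all tested genes). Those described next, as well as Tnf, Il6 and Ifnb1, were singled out after their values were seen and stand for no theme. Among the inhibitors, 3 of the 5 above 0 did not overlap between the groups, while Irak3, Tollip, Sigirr, Dusp1 and Cyld were below 0, from -0.44 to -0.0072 on the log2 scale. Tnfaip3, which encodes the deubiquitinase A20, was at 43.7 to 66.5 CPM in the femur and 78.2 to 140 CPM in the mandible, higher by 1.09 on the log2 scale (edgeR adjusted p = 0.060, DESeq2 adjusted p = 0.0077). With the correction for gene length Tnfaip3 had 0.57 (edgeR adjusted p = 0.47). With 1 library left out, Tnfaip3 was called only without mandible S16 (edgeR adjusted p = 0.048, otherwise 0.090 to 0.28). Nfkbia, the NF-κB inhibitor IκBα, was at 39.8 to 58.7 and 78.3 to 88.0 CPM (log2 fold change 0.77, edgeR adjusted p = 0.12). Socs1 had 27 to 65 counts in the femur and 127 to 174 counts in the mandible (log2 fold change 1.76, edgeR adjusted p = 0.17). The NF-κB subunit genes Relb, Nfkb2 and Nfkb1 differed by 1.19, 0.79 and 0.40 on the log2 scale (edgeR adjusted p = 0.11, 0.12 and 0.53), and DESeq2 called Relb (adjusted p = 0.038). No other setting called Relb (edgeR or limma-voom adjusted p from 0.093 to 0.38). Irf3, a factor downstream of Tlr3 and Tlr4, had the opposite sign, with 31.5 to 83.2 CPM in the femur and 19.9 to 30.3 CPM in the mandible (log2 fold change -0.96, edgeR adjusted p = 0.23). Of 15 genes that receptor signaling induces 10 were tested, with a median log2 fold change of 0.072, and the most abundant, Nfkbiz and Ccl3, had 0.80 and 0.071. Tnf had a log2 fold change of -0.0073 (SE 0.37). Il6 had 0.041 (SE 1.12) from only 10 to 47 counts, with a 95% interval from 0.187-fold to 5.67-fold. Ifnb1 had no count in any library.

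**Figure D4:**
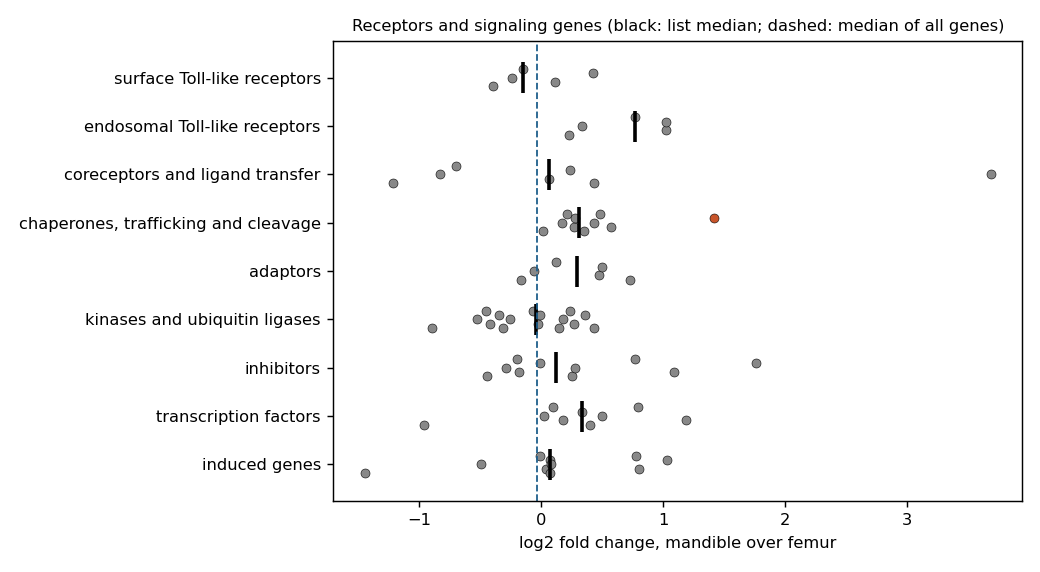
Log2 fold change, mandible over femur, of the tested genes in 9 receptor and signaling lists (points; Tlr12, at -3.57, is not drawn), with the median of each list as a black bar and the median of all tested genes (-0.038) as a dashed line. The only called gene, Ctsl, is in orange, and of these 9 lists the endosomal receptors have the median farthest from the dashed line (0.77).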

How the data were processed

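RNA of monocytes from 6 libraries, 3 per skeletal site, was sequenced in pairs of 50 bases. The authors trimmed the reads, mapped them with HISAT2 2.1.0 (the version in the submitters' processing notes) to a genome named as GRCm38, counted them per gene with featureCounts and deposited raw counts with the exon length of each gene. The intervals in the table lay outside the GENCODE M21 genes for all 10 receptors, and M21 positions matched by Ensembl identifier are printed instead. Counting settings for strand and multiple positions are not given in the sources used here.

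Counts were filtered (edgeR 4.0.16 in R 4.3.3, filterByExpr, minimum count 10, minimum total 15), scaled by TMM and tested over all 18114 genes with the quasi-likelihood test without covariates and Benjamini-Hochberg adjustment. RPKM used the length in the table. For single receptors, log2 CPM was permuted exactly between the groups (two-sided, smallest p 0.1). A count of 0 allows up to 3 counts, for counting error only. The members and lists were chosen with earlier results of these data known. Named were all 10 receptors, Tlr11, Tlr12, the called and the 2 most abundant genes of each signaling list, and selected coreceptors and markers. Printed promoters come from RefSeq (GRCm38.p6) and the coding run from GENCODE M21. Values of 1 marker gene of these lists are not reported here. Alternatives were DESeq2 1.42.0, limma-voom (limma 3.58.1), other scalings and filters, a loess correction for length (span 0.4), other lengths for RPKM, and each library left out in turn.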

Additional observations from a re-analysis of the deposited data

How the results depend on the processing

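The count of called receptors was 0 under every alternative run, with smallest adjusted p-values of 0.15 to 0.64 (edgeR, DESeq2 or limma-voom). Leaving out 1 library reversed the sign of Tlr1 (range -0.68 to 0.19), Tlr4 (-0.47 to 0.048), Tlr5 (-0.031 to 0.39) and Tlr6 (-0.51 to 0.31), and the correction for gene length reversed Tlr5 (-0.092). The 5 endosomal receptors and Tlr2 kept a log2 fold change above 0 under each alternative, from 0.69 to 1.24 for Tlr9, 0.50 to 0.99 for Tlr7, 0.46 to 1.68 for Tlr3, 0.16 to 0.68 for Tlr2, 0.033 to 0.32 for Tlr8 and 0.020 to 0.58 for Tlr13, so that Tlr8 (without femur S13) and Tlr13 (without mandible S19) came close to 0. Tlr7 had an unadjusted p under 0.05 without normalization factors and without mandible S23, and Tlr9 had none without S13, S16 or S19. The number of called signaling genes, 1, was 2 without normalization factors (Tnfaip3 added), 3 under DESeq2 (Tnfaip3 and Relb added), 2 with no filter on counts (Tnfaip3 added), 0 with the length correction, and 0 to 2 when 1 library was left out. Over all genes DESeq2 called 1547 and leaving out the filter called 1590, against 938, and with 1 library left out the number ran from 434 to 1565. The length correction moved the median of all genes from -0.038 to -0.18, and leaving out the filter moved it to -1.09. The difference in surface share, -4.07 points, was -4.49 with the longest transcript as length and -4.73 without length, and ran from -8.45 to -0.76 when 1 library was left out. No paired analysis was possible because the animal of each library is not given, so any pairing of femur and mandible libraries is unknown. Why results changed with a setting was not tested. The depth limits Tlr3, Tlr11, Tlr12, Ly96 and Il6, each under 100 counts in every library.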
